A study of Homo sapiens with 14 samples.

Results

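USP53 and ARLN are 2 of the 12411 nuclear genes in a table of RNA polymerase II (RNAPII) occupancy per gene in human BJ hTERT fibroblasts. They are neighbours on chromosome 4 and were picked because RNAPII was higher with an ATR inhibitor (ATRi) than with the vehicle DMSO at every hour compared, with both antibodies used. The ATRi to DMSO values of the pair are therefore given as a description, with no test. Listed genes on either side are described as context.

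The study mapped RNAPII by sequencing of immunoprecipitated chromatin (ChIP-seq) in BJ hTERT cells, skin fibroblasts from foreskin that carry the telomerase gene and so keep dividing. One antibody recognises the N-terminal part of RPB1, the largest RNAPII subunit, and is called total RNAPII here. The other recognises RPB1 phosphorylated on serine 2 of the C-terminal repeats and is called Ser2. For each antibody there was 1 library in each of 7 conditions: 14 h with no agent named (its columns in the table read CTR, which is not spelled out), 16 h, 19 h and 22 h with DMSO, and 16 h, 19 h and 22 h with ATRi, which makes 14 libraries and no replicate within a group. All are of the same cell line, and the labels name no genetic change beyond the telomerase gene. The zero of the hour scale, the compound used as ATRi and any way of aligning the cells in the cell cycle are not given in the sources used here, although the series title speaks of S-phase. The protocol text speaks of antibodies to phosphorylated H2A.X and to H3, so the antibody behind each library is taken from its own label.

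RNAPII starts transcription at promoters, and serine 2 of its C-terminal repeats becomes phosphorylated as it moves through the gene body, most of all towards the 3′ end. ATR is the kinase that responds to stalled replication forks and holds back the firing of further origins. USP53 belongs to the ubiquitin-specific protease (USP) family, is known from tight junctions, where it binds the scaffold protein TJP1 (ZO-1), and is linked to inherited hearing loss in mice and to cholestasis in people. ARLN, also called C4orf3 or another-regulin, encodes a small membrane protein of the endoplasmic reticulum that inhibits SERCA, the calcium pump encoded in most tissues by ATP2A2.

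USP53 (ENSG00000145390) is listed on the plus strand of chromosome 4 from 119212587 to 119295517 (hg38), a span of 82931 bp. ARLN (ENSG00000164096) is listed on the minus strand from 119296419 to 119304445, a span of 8027 bp. The spans are separated by 901 bp, and the genes point at each other, so that their 3′ ends are the near ends. ChIP records no strand. Polymerase that runs past the 3′ end of one gene into the span of the other cannot be told apart from polymerase of that other gene.

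Promoter windows of the pair run from 250 bases before to 50 bases after a RefSeq start site of each gene (GRCh38.p14). They are shown because both genes moved together over the libraries while these start sites lie towards opposite ends of the locus. Capitals mark GGGCGG, the GC box, and CCAAT, each searched on both strands and therefore also printed as CCGCCC or ATTGG.
USP53, plus strand, chr4:119212463-119212762: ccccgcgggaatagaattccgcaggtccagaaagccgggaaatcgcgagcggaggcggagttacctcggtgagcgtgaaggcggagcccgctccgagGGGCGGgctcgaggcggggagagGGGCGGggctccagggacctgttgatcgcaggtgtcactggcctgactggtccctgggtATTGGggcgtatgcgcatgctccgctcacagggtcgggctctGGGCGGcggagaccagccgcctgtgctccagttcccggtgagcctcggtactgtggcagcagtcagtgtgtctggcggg
ARLN, minus strand, chr4:119300596-119300895: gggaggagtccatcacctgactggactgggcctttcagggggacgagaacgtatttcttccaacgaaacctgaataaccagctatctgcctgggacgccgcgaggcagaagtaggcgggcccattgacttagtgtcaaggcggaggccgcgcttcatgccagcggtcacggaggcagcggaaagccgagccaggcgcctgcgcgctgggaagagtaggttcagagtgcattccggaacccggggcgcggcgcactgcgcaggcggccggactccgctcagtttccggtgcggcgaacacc

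Both windows were rich in GC, at 68.3% for USP53 and 64.3% for ARLN, with 28 and 29 CpG. The USP53 window held 3 GGGCGG, at -153, -130 and -29 from the start site, and 1 CCAAT on the other strand at -71. These motifs were common: of 35116 promoters of the same 300 bases, 45.0% held GGGCGG and 34.6% held CCAAT on either strand. Neither window held TATAAA (11.5% of promoters), TGANTCA (7.71%), TGACGTCA (1.85%) or CACGTG (7.26%), and the ARLN window held none of the 6 motifs searched. No motif of the 6 contains another. The RefSeq start of USP53 lies 126 bp inside the listed span. The start site used for ARLN lies 3800 bp inside its listed span, which is also the RefSeq span of the gene. The ARLN window shown is thus that of a start site internal to the gene. The counts over ARLN include the part of the gene upstream of that site, whose sequence was not searched beyond the window.

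The libraries held 17181179 to 62368914 reads, and the median gene had 303 to 1623 reads in a library. The share of reads that fell in the listed nuclear genes was 63.5% to 72.0% in the 19 h libraries and 35.8% to 57.4% in all others, and at 22 h with total RNAPII it was 42.8% with DMSO and 57.4% with ATRi. Values are reads over a whole gene span scaled to a library of 1000000 reads (RPM), and differences are given on the log2(RPM + 0.5) scale, also relative to the median gene, because the median gene itself moved between libraries. Of 10 fibroblast markers 9 were listed, all but S100A4, with a summed level of 544 to 1417 RPM. Of 6 keratinocyte markers only KRT14 was listed, at 0.236 to 1.18 RPM, of 4 endothelial markers only VWF, at 15.2 to 50.5 RPM, and of 4 blood markers none. In bulk samples fewer cells with polymerase on a gene and less polymerase per cell cannot be told apart.

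USP53 was a well occupied gene in every library. With total RNAPII it had 153 RPM at 14 h, then 142 with DMSO against 201 with ATRi at 16 h, 338 against 398 at 19 h and 99.6 against 221 at 22 h. With Ser2 it had 125 RPM at 14 h, then 74.1 against 93.8 at 16 h, 317 against 375 at 19 h and 105 against 126 at 22 h. Both 19 h libraries stood above the 5 others with each antibody, and the lowest value was the 22 h DMSO library with total RNAPII but the 16 h DMSO library with Ser2.

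ARLN had its highest values at the same hour, at lower read numbers. With total RNAPII it had 25.1 RPM at 14 h, then 30.5 with DMSO against 37.6 with ATRi at 16 h, 75.7 against 79.8 at 19 h and 20.7 against 46.0 at 22 h. With Ser2 it had 19.3 RPM at 14 h, then 11.99 against 19.2 at 16 h, 62.5 against 75.7 at 19 h and 20.7 against 24.6 at 22 h. The 19 h libraries were again the highest, followed by 22 h with ATRi, with either antibody. These values rest on 351 to 3714 reads a library for ARLN and 1833 to 18516 for USP53.

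**Figure D1:**
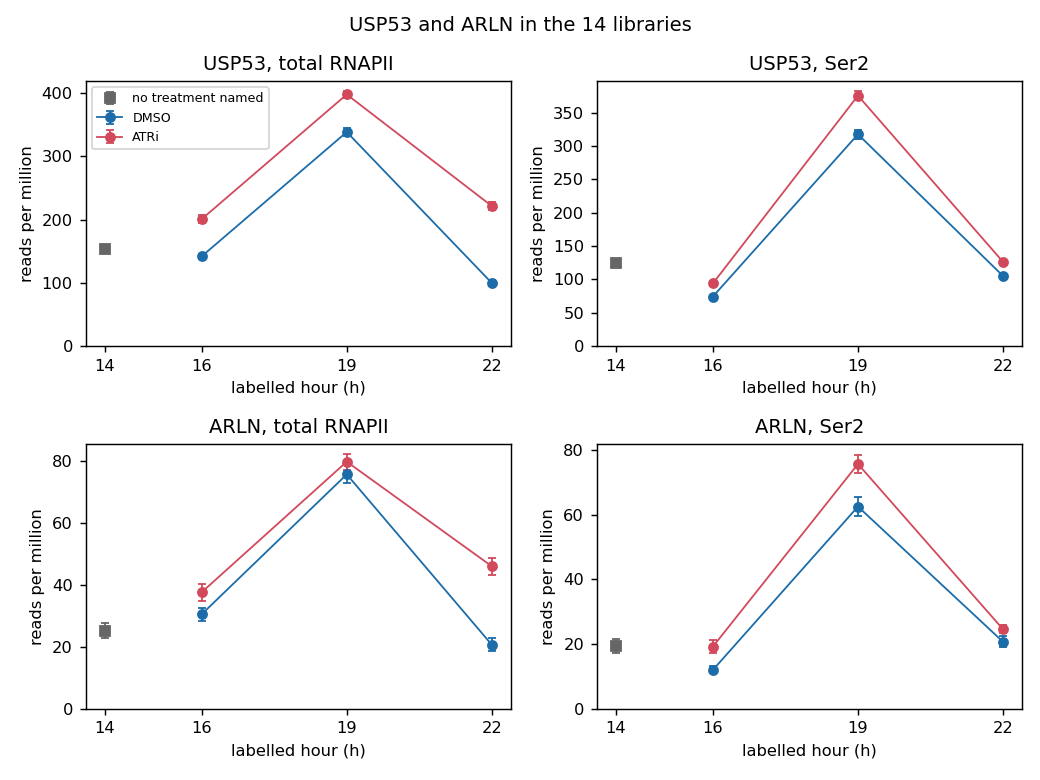
RPM of USP53 (top) and ARLN (bottom) against the labelled hour in h, with total RNAPII (left) and Ser2 (right); points are single libraries (gray, 14 h; blue, DMSO; red, ATRi) and bars are exact 95% Poisson intervals for counting error only. The ATRi point lies above the DMSO point at each hour, and the 19 h points are the highest in each panel, from 62.5 to 398 RPM.

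From low to high, the order of the total RNAPII levels of USP53 was 22 h DMSO, 16 h DMSO, 14 h, 16 h ATRi, 22 h ATRi, 19 h DMSO and 19 h ATRi. ARLN had the same order except that 14 h and 16 h DMSO changed places. With Ser2 the order for USP53 was 16 h DMSO, 16 h ATRi, 22 h DMSO, 14 h, 22 h ATRi, 19 h DMSO and 19 h ATRi, and for ARLN 14 h and 22 h DMSO changed places. Most neighbours in these orders had separate 95% counting intervals. The exceptions were 19 h DMSO and 19 h ATRi for ARLN with total RNAPII, 14 h and 22 h ATRi for USP53 with Ser2, and 16 h ATRi, 14 h and 22 h DMSO for ARLN with Ser2. With 1 library per group the spread between cultures is unknown, and these intervals do not cover it.

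Per kilobase of listed span ARLN was the more densely occupied of the pair in all 14 libraries. Its span of 8.03 kb is much shorter than the 82.9 kb of USP53, and reads near a promoter weigh more in a short span. The part of span length in this was not tested. USP53 had 1.20 to 4.80 RPM per kb with total RNAPII and 0.894 to 4.53 with Ser2, and ARLN had 2.57 to 9.94 and 1.49 to 9.43. The ratio of ARLN to USP53 per kb ranged from 1.60 to 2.31. It was lowest in the Ser2 libraries of 14 h and 16 h DMSO, at 1.60 and 1.67, and in the total library of 14 h, at 1.70. The median gene had 0.479 to 1.16 RPM per kb. Among the listed genes USP53 was at percentile 82.5 to 93.2 of this density and ARLN at percentile 93.9 to 97.8.

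The ATRi to DMSO contrast chose the pair. USP53 was higher with ATRi by 1.42-fold at 16 h (95% counting interval 1.35 to 1.48), 1.18-fold at 19 h (1.15 to 1.20) and 2.22-fold at 22 h (2.11 to 2.34) with total RNAPII. With Ser2 it was higher by 1.27-fold (1.19 to 1.34), 1.18-fold (1.15 to 1.21) and 1.20-fold (1.15 to 1.25). ARLN was higher by 1.23-fold (1.11 to 1.36), 1.05-fold (1.00 to 1.11) and 2.23-fold (1.98 to 2.51) with total RNAPII, and by 1.60-fold (1.39 to 1.84), 1.21-fold (1.14 to 1.28) and 1.19-fold (1.08 to 1.30) with Ser2. The 2 antibodies placed the largest difference at different hours: with total RNAPII it was at 22 h for both genes, and with Ser2 at 16 h for both. For USP53 with Ser2 the counting intervals of the hours overlap, so its largest difference is not set apart from the others. Whether the antibodies differ in this was not tested.

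The mean log2 difference over the 3 hours was 0.63 ± 0.47 (SD over hours) for USP53 with total RNAPII and 0.28 ± 0.05 with Ser2, and for ARLN 0.50 ± 0.56 and 0.39 ± 0.23. With total RNAPII these means rested largely on 22 h: without that hour they were 0.37 for USP53 and 0.19 for ARLN. With Ser2 the ARLN mean was 0.26 without 16 h. The median gene was itself higher with ATRi by 0.50 at 22 h with total RNAPII, and by -0.03 to 0.16 in the other comparisons. Relative to the median gene USP53 was higher by 0.45, 0.26 and 0.64 at 16, 19 and 22 h with total RNAPII and by 0.28, 0.18 and 0.10 with Ser2. ARLN was higher by 0.24, 0.10 and 0.63, and by 0.59, 0.21 and 0.08. The values of the pair thus stayed above the median gene at each hour. The share of reads in listed genes, higher with ATRi at 22 h, moved with the 22 h difference, and its part in it was not tested.

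Higher with ATRi at all 3 hours with both antibodies were 8.02% of 11978 genes, and 2.61% were above the median gene in all 6 comparisons. With total RNAPII alone 18.0% of genes were higher at all 3 hours and 8.33% above the median gene, and with Ser2 alone 42.6% and 16.0%. By the smallest of its 6 differences, 0.23, USP53 ranked 1 of 11978, and ARLN, whose smallest was 0.08 at 19 h with total RNAPII, ranked 74. Taken relative to the median gene, the smallest differences were 0.10 and 0.08 and ranked 8 and 12. By its mean with total RNAPII USP53 ranked 2 of 12031 genes and with Ser2 705 of 11989, and ARLN ranked 30 and 106. These ranks describe a pair chosen on the same values. In limma fits with hour as a block, 0.0% of genes passed an adjusted p of 0.05 with total RNAPII and 0.0% with Ser2. Before adjustment, 204 genes were higher and 0 lower with total RNAPII at p under 0.05, and 2630 and 25 with Ser2, and edgeR's quasi-likelihood test on recovered reads also called 0 with either antibody, with 27 higher and 24 lower, and 522 and 712, before adjustment.

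Of the listed genes around the pair, PRSS12, LOC729218, METTL14, SEC24D and SYNPO2 lie before USP53, at 860, 579, 497, 374 and 151 kb. ENSG00000245958, ENSG00000250950, PDE5A and ANXA5 lie beyond ARLN, at 159, 161, 199 and 2372 kb from USP53. ENSG00000250950 lies inside ENSG00000245958, which PDE5A overlaps on the other strand, so their reads are partly the same. In RefSeq MYOZ2 lies 24.8 kb before USP53, FABP2 12.8 kb beyond ARLN, and the noncoding LOC101929762 overlaps the start of USP53 by 58 bp. These 3 genes were not analysed here.

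Among the flanking genes PRSS12, which encodes a secreted serine protease, and SEC24D, a cargo adaptor of the COPII coat that leaves the endoplasmic reticulum, were also higher with ATRi in all 6 comparisons. Their smallest differences were 0.02 and 0.0030, close to no difference. ANXA5, a calcium-dependent phospholipid-binding protein, lay just outside the rule with -0.0074 at 19 h with total RNAPII. SYNPO2, an actin-binding protein and the nearest listed gene before USP53, had 66.6 RPM with DMSO against 69.9 with ATRi at 16 h, 62.4 against 71.0 at 19 h and 85.4 against 67.1 at 22 h. Its total RNAPII was therefore lower with ATRi at 22 h, by 0.35, the hour at which USP53 and ARLN were 1.15 and 1.14 higher. SYNPO2 was sparsely occupied over its span of 211 kb. At 22 h its total RNAPII per kb was at percentile 20.9 of genes with DMSO and 9.23 with ATRi. The part of background reads in its difference was not tested.

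The mean difference over the hours with total RNAPII was 0.26 for PRSS12, 0.17 for LOC729218, 0.19 for METTL14, a subunit of the RNA methyltransferase that makes m6A, 0.29 for SEC24D and -0.03 for SYNPO2. On the other side it was 0.28 for ENSG00000245958, 0.21 for PDE5A, a phosphodiesterase that breaks down cyclic GMP, and 0.32 for ANXA5. All were below the 0.63 and 0.50 of USP53 and ARLN, which were chosen on this contrast. With Ser2 the flanking means ranged from -0.05 (SYNPO2) to 0.20 (ANXA5), against 0.28 and 0.39 for the pair. None of these 8 genes passed the limma test, with adjusted p of 0.767 or more with total RNAPII and 0.178 or more with Ser2. ENSG00000250950 was at 0.44 to 0.92 RPM in all libraries and was not tested.

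**Figure D2:**
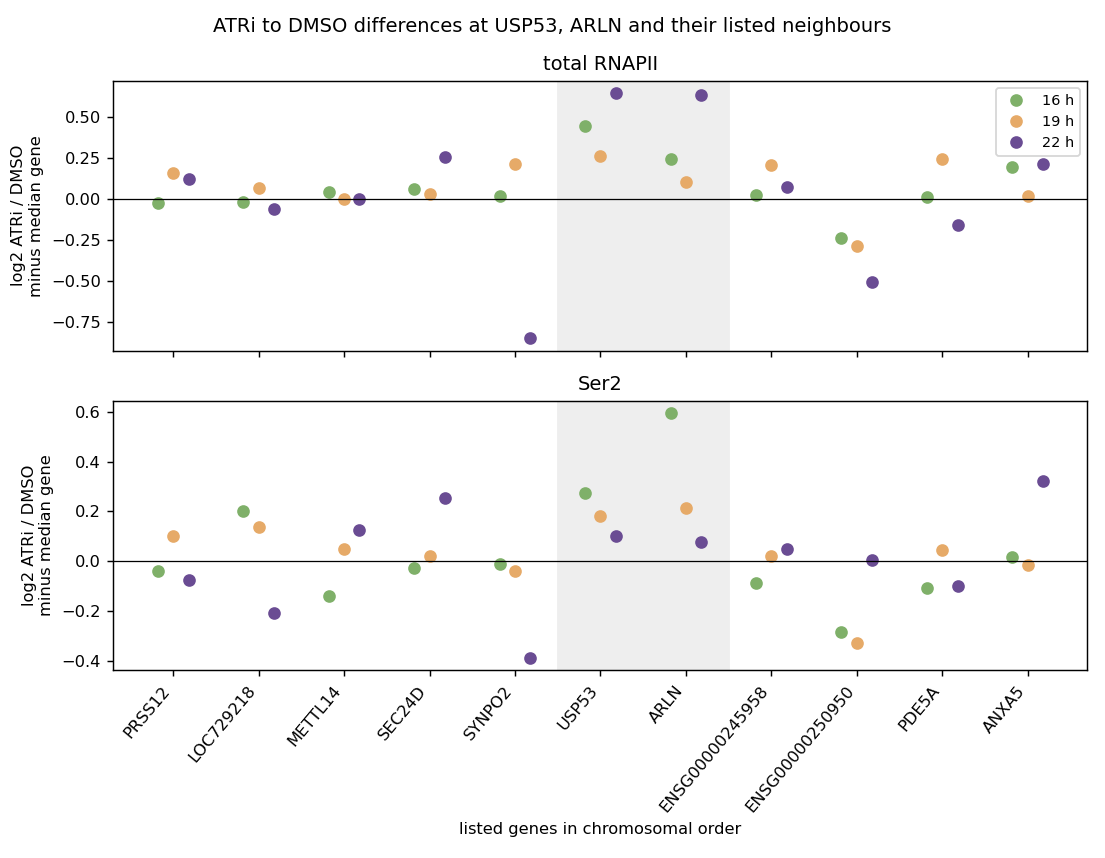
Log2 ATRi to DMSO difference minus that of the median gene for 11 listed genes in chromosomal order, by labelled hour (colours), with total RNAPII above and Ser2 below; each point compares 2 single libraries and the shading marks USP53 and ARLN. At USP53 and ARLN, which were chosen on this contrast, all points lie above 0, from 0.08 to 0.64. Of the 9 flanking genes shown only ANXA5, SEC24D and ENSG00000245958 lie above 0 at all 3 hours with total RNAPII, and none does with Ser2.

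The hour of sampling was not used to choose the pair. USP53 was higher at 19 h than at 16 h by 4.28-fold with DMSO and 4.00-fold with ATRi in Ser2, and by 2.39-fold and 1.98-fold in total RNAPII. ARLN was higher by 5.21-fold and 3.94-fold in Ser2, and by 2.48-fold and 2.12-fold in total RNAPII. At 22 h USP53 was at 0.331 (DMSO) and 0.336 (ATRi) of its 19 h level in Ser2 and at 0.294 and 0.556 in total RNAPII. ARLN was at 0.331 and 0.325 in Ser2, and at 0.273 and 0.576 in total RNAPII. In the step from 14 h to 16 h with DMSO the genes differed: total RNAPII differed by -0.11 on the log2 scale at USP53 and 0.27 at ARLN, beside 0.26 for the median gene, and Ser2 by -0.75 and -0.67, beside -0.07. The 14 h libraries carry the tag CTR and no named agent, and the 16 h libraries DMSO, so hour and treatment cannot be told apart in that step.

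The 19 h libraries were set against the mean of 16 h and 22 h in limma with treatment as a term. This comparison was chosen after the levels by hour had been seen. USP53 was higher at 19 h by 1.81 ± 0.07 (log2, SE, 6 libraries) in Ser2, with a limma adjusted p of 4.4e-12, and by 1.21 ± 0.20 in total RNAPII, with an adjusted p of 6.5e-05. ARLN was higher by 1.87 ± 0.09 in Ser2 (limma adjusted p 1.5e-11) and by 1.25 ± 0.21 in total RNAPII (8.0e-05). Many genes did the same: 86.4% of genes passed as higher and 5.64% as lower in Ser2, and 62.4% and 2.99% in total RNAPII, with a median difference over all genes of 0.79 and 0.58. The pair was far up in this distribution, at percentile 99.8 for both genes in Ser2, and at percentile 99.3 (USP53) and 99.5 (ARLN) in total RNAPII. With a background density subtracted, USP53 and ARLN were lower in it, at percentile 96.4 and 95.5 in Ser2 and 94.0 and 92.9 in total RNAPII. The median gene was then 1.35 higher at 19 h in Ser2 and 0.89 in total RNAPII.

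With each library centred on its median gene, 36.0% of genes passed as higher and 29.9% as lower in Ser2, and 4.77% and 9.61% in total RNAPII, and both genes remained called in limma. USP53 was then higher by 1.07 (adjusted p 2.0e-12) and 0.69 (0.0122), and ARLN by 1.12 (6.0e-11) and 0.73 (0.0133). The call in total RNAPII was lost without the 16 h libraries, at an adjusted p of 0.0865 for USP53 and 0.0720 for ARLN, and after subtraction of a background density, at 0.0926 for both, where USP53 was 1.36 and ARLN 1.32 higher. The 19 h libraries were also those with the largest share of reads in listed genes, and its part in the result was not tested.

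**Figure D3:**
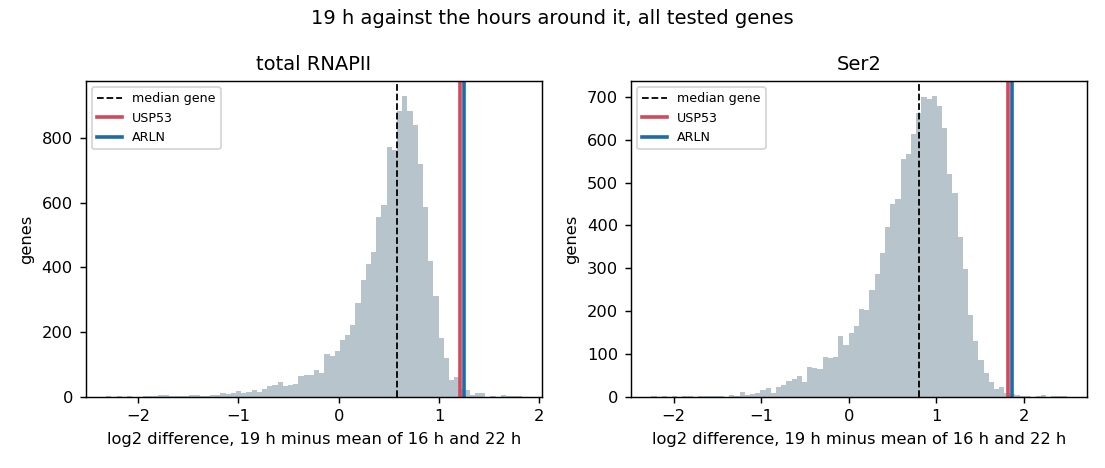
Number of genes by log2 difference of 19 h minus the mean of 16 h and 22 h, for all tested genes with total RNAPII (left) and Ser2 (right); the dashed line is the median gene, the red line USP53 and the blue line ARLN. The lines of USP53 and ARLN lie together near the upper end, at 1.21 and 1.25 with total RNAPII and 1.81 and 1.87 with Ser2.

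The flanking genes spread widely in the same comparison. In Ser2 ANXA5 was higher at 19 h by 1.55, SEC24D by 1.43, METTL14 by 1.06 and PDE5A by 0.75, while SYNPO2 was higher by 0.28. In total RNAPII ANXA5 had 0.96 and SEC24D 0.92, both called, and SYNPO2 had -0.11, not called. Both members of the pair were thus above all 8 of these tested flanking genes with each antibody.

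Between 16 h and 22 h total RNAPII at USP53 differed by -0.18 ± 0.23 and at ARLN by -0.13 ± 0.25, and neither passed in limma (adjusted p 1.00 for both). The treatments went opposite ways: USP53 was lower at 22 h by 0.51 with DMSO and higher by 0.14 with ATRi, and ARLN lower by 0.55 and higher by 0.29. No gene was called in limma in this comparison (0.0%), although 72 were higher and 283 lower at p under 0.05 before adjustment, and edgeR called 0 as well, with 453 and 538 before adjustment. In Ser2 USP53 was higher at 22 h by 0.46 ± 0.08 (limma adjusted p 4.3e-04), and both treatments showed it, with 0.50 for DMSO and 0.42 for ATRi. ARLN was higher by 0.56 ± 0.11 (7.2e-04), with 0.76 and 0.35. Of all genes 39.0% passed as higher and 0.918% as lower in Ser2. After median centring USP53 was higher by 0.24 (0.0343) and ARLN by 0.33 (0.0209), where 10.2% of genes passed as higher. With background density subtracted neither gene passed in limma (adjusted p 0.0790 and 0.0836).

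Ser2 was compared with total RNAPII within each of the 7 conditions. The log2 ratio of Ser2 to total at USP53 was -0.30 at 14 h, then -0.93 with DMSO against -1.09 with ATRi at 16 h, -0.09 against -0.08 at 19 h and 0.07 against -0.81 at 22 h. At ARLN it was -0.37 at 14 h, then -1.31 against -0.95 at 16 h, -0.27 against -0.08 at 19 h and 0.0025 against -0.89 at 22 h. Both genes thus had their lowest ratios at 16 h and with ATRi at 22 h, and values near 0 at 19 h and with DMSO at 22 h. The median gene took the same course in a narrower range, from -0.60 at 16 h to -0.13 with DMSO at 22 h.

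Over the 7 pairs the mean was -0.46 ± 0.14 for USP53 (limma adjusted p 0.0116) and -0.55 ± 0.15 for ARLN (0.0061), below 0 in 6 of 7 conditions for each, beside 78.7% of all genes that passed as lower in Ser2. An exact two-sided sign-flip test over the 7 pairs gave p = 0.0312 for each gene, where 0.0156 is the smallest it can give. With each library centred on its median gene the limma means were -0.094 and -0.19, with limma adjusted p of 0.371 and 0.0990. Taken relative to the median gene's ratio in each condition, the means were -0.11 and -0.20, with exact sign-flip p of 0.328 and 0.141. A difference from the median gene was thus not detected. In limma with centring 24.5% of genes passed as lower and 30.1% as higher.

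**Figure D4:**
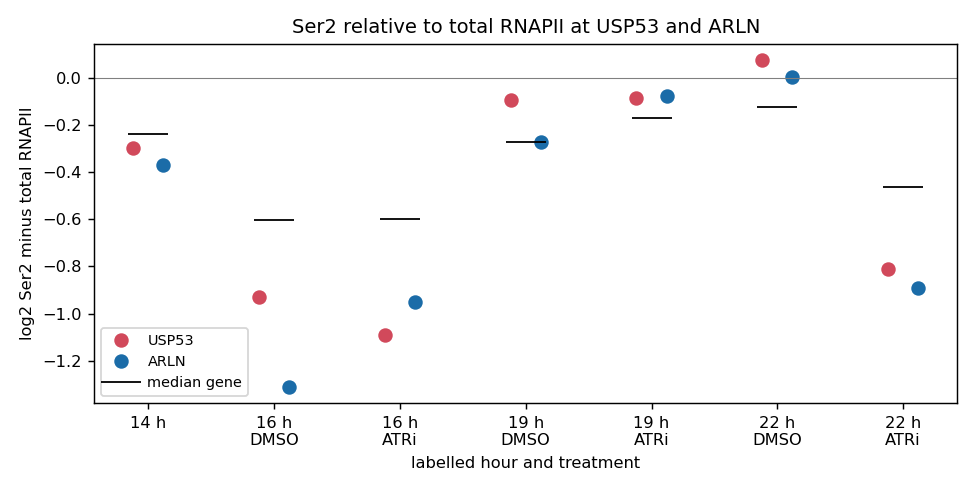
Log2 of Ser2 minus total RNAPII at USP53 (red) and ARLN (blue) in each of the 7 conditions of labelled hour and treatment, with the median gene as a black line; each point is a ratio of 2 single libraries. Both genes lie below the median gene at 16 h and at 22 h with ATRi, down to -1.31. In the other conditions their difference from the median gene ranges from -0.13 to 0.20.

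The likeness of profiles was described by Pearson's r over the 14 libraries, of log2 levels relative to the median gene and to the gene's mean within each antibody. The libraries share depth and hour between genes, so high values are common. ARLN had r = 0.96 with USP53, and ranked 11 of 11974 genes by likeness to USP53. Both genes were chosen for higher values with ATRi in these libraries, so this r is not independent of that choice. From the side of ARLN, USP53 ranked 47. The 5 genes most like USP53 were FAT1, a large cadherin, ENSG00000282057, FERMT2, an integrin activator at focal adhesions, EXT1, which polymerises heparan sulfate, and CRIM1, a transmembrane protein that binds bone morphogenetic proteins, with r of 0.98, 0.97, 0.97, 0.97 and 0.96. The 5 most like ARLN were RUSC2, NTMT1, an N-terminal methyltransferase, ZNF655, TRIO, a guanine nucleotide exchange factor, and SPAG7, with r of 0.98, 0.98, 0.97, 0.97 and 0.97. Of the flanking genes ANXA5 had r = 0.90 with USP53, METTL14 0.78, SEC24D 0.77 and ENSG00000245958 0.77. PRSS12 had 0.28, PDE5A -0.26, LOC729218 -0.33 and SYNPO2 -0.73.

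Since USP53 and ARLN meet tail to tail, they were set beside the 565 convergent pairs of neighbouring listed genes at most 5000 bp apart, themselves included. Both genes were higher with ATRi at all 3 hours with both antibodies in 7 of these pairs (1.24%), in 3 of 641 divergent pairs (0.468%) and in 7 of 986 tandem pairs (0.710%). The other 6 convergent pairs included CNOT11 with RNF149 and ACO1 with RIGI. By the smaller of the 2 mean ATRi differences relative to the median gene, USP53 and ARLN ranked 1 of 565 in total RNAPII and 13 in Ser2, which describes a pair chosen on this contrast.

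Across the 565 pairs, which share the libraries, Pearson's r between partners was 0.27 (total RNAPII) and 0.33 (Ser2) for ATRi, and 0.36 and 0.38 for the 19 h comparison. The partners USP53 and ARLN differed in the mean ATRi value by 0.12 in total RNAPII and 0.11 in Ser2, beside a median of 0.09 over the pairs with either antibody. In the 19 h comparison they differed by 0.04 and 0.05, beside medians of 0.17 and 0.24. By the smaller of the 2 values in that comparison they ranked 2 of 565 with each antibody.

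**Figure D5:**
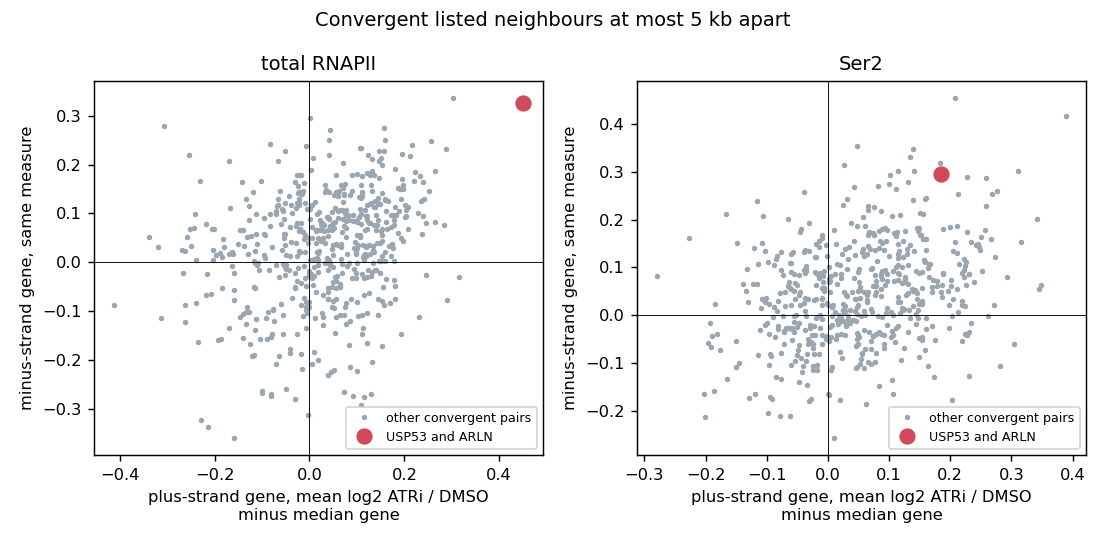
Mean log2 ATRi to DMSO difference minus the median gene for the plus-strand gene (x axis) and the minus-strand gene (y axis) of 565 convergent pairs at most 5000 bp apart, with total RNAPII (left) and Ser2 (right); each gray dot is a pair and the red dot is USP53 with ARLN. The red dot is at 0.45 and 0.33 in total RNAPII, at the upper right edge, and at 0.19 and 0.30 in Ser2, within the upper right of the cloud.

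Genes of cell junctions, where USP53 is known to act, had a lower median difference at 19 h than all genes. Of 30 genes of tight and tricellular junctions 11 were listed, and 2 of them were higher with ATRi in all 6 comparisons, beside 8.02% of all genes. None was above the median gene in all 6, beside 2.61% of all genes. TJP1 had ATRi differences of 0.13, -0.04 and 0.19 at 16, 19 and 22 h with total RNAPII, and USP54, the closest relative of USP53 in the family, 0.02, 0.06 and 0.03. At 19 h in Ser2 5 of the 11 passed as higher and 3 as lower, beside 86.4% and 5.64% of all genes, with a list median of 0.09 beside 0.79 for all genes. After median centring 1 was higher and 10 were lower, beside 36.0% and 29.9% of all genes. CLDN15, a claudin, rose by 1.37 (limma adjusted p 5.5e-10), JAM3, an adhesion molecule, by 0.42 (5.2e-05), TJP1 by 0.27 (0.0022) and USP54 by 0.19 (0.0260), whereas PATJ, a polarity scaffold, fell by 0.74 (1.2e-08) and CGNL1, paracingulin, fell by 0.31 (0.0012). In total RNAPII 1 was higher and 2 were lower at 19 h, beside 62.4% and 2.99% of all genes. After centring 0 were higher and 6 lower, beside 4.77% and 9.61% of all genes. Between 16 h and 22 h 1 of 11 was higher in Ser2, CLDN15 with 0.73 (2.5e-04), and 0 were lower, beside 39.0% and 0.918% of all genes. On the centred scale 1 was higher and 5 were lower, beside 10.2% and 10.5% of all genes. None passed in total RNAPII on either scale, beside 0.0% of all genes. For Ser2 against total 1 passed as higher and 2 as lower, beside 3.79% and 78.7% of all genes. Relative to the median gene 10 were higher and 0 lower, beside 30.1% and 24.5% of all genes.

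Of 30 genes of calcium handling in the endoplasmic reticulum 16 were listed. Of these 4 were higher with ATRi in all 6 comparisons, beside 8.02% of all genes. Above the median gene in all 6 were 2 of them, beside 2.61% of all genes. ATP2A2, the pump that ARLN inhibits, had ATRi differences of 0.07, -0.06 and 0.68 with total RNAPII and 0.15, 0.05 and 0.35 with Ser2. At 19 h 12 of 16 passed as higher and 1 as lower in Ser2, with a median of 0.81, and 9 and 0 in total RNAPII, with a median of 0.59, close to the 0.79 and 0.58 of all genes. Over all genes 86.4% were higher in Ser2 and 62.4% in total RNAPII. Relative to the median gene 6 were higher and 6 lower in Ser2, beside 36.0% and 29.9% of all genes. In total RNAPII these counts were 2 and 0, beside 4.77% and 9.61%. ATP2A2 rose at 19 h by 1.28 in Ser2 (limma adjusted p 6.4e-11), CALU, a calcium-binding protein of the lumen, by 1.63 (3.4e-11), ORAI2, a subunit of the store-operated calcium channel, by 1.23 (2.0e-10) and ITPR3, a calcium release channel, by 0.92 (1.7e-09). Between 16 h and 22 h 6 of 16 were higher and 0 lower in Ser2, beside 39.0% and 0.918% of all genes, among them CALR, the chaperone calreticulin, with 0.91 (1.3e-05), and ATP2A2 with 0.60 (1.2e-04). With centring 3 were higher and 2 lower, beside 10.2% and 10.5% of all genes. None passed in total RNAPII, beside 0.0% of all genes. For Ser2 against total 12 of 16 passed as lower and 0 as higher, beside 78.7% and 3.79% of all genes. With centring 4 were lower and 4 higher, beside 24.5% and 30.1% of all genes.

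Of 76 USP family genes 42 were listed besides USP53, and 4 were higher with ATRi in all 6 comparisons, beside 8.02% of all genes. None was above the median gene in all 6, beside 2.61% of all genes. At 19 h 36 of 42 passed as higher and 2 as lower in Ser2, with a median of 0.72, and 26 and 1 in total RNAPII, with a median of 0.51. These shares lie near the 86.4% and 62.4% of all genes that were higher. Relative to the median gene 12 were higher and 12 lower in Ser2, beside 36.0% and 29.9% of all genes. In total RNAPII these counts were 1 and 6, beside 4.77% and 9.61%. USP11 rose by 1.39 (limma adjusted p 1.2e-10), USP36, a nucleolar member, by 1.26 (1.5e-10), USP22, a subunit of the SAGA coactivator, by 1.09 (3.4e-10) and USP4 by 1.03 (4.4e-10) in Ser2, each less than USP53 with 1.81. Between 16 h and 22 h 24 were higher and 1 lower in Ser2, beside 39.0% and 0.918% of all genes. With centring these counts were 2 and 3, beside 10.2% and 10.5% of all genes. None passed in total RNAPII, beside 0.0% of all genes. For Ser2 against total 33 of 42 passed as lower and 1 as higher, near the 78.7% and 3.79% of all genes. The direction turned with centring, where 24 were higher and 5 lower, beside 30.1% and 24.5% of all genes.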

How the data were processed

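The authors deposited 1 table of RPM values (reads scaled to a library of 1000000 reads) for 14 libraries over 12425 listed genes, not divided by length. Per the submitters' processing notes, Bowtie2 2.3.3.1, SAMtools 1.4 and hg38 were used; the counting tool, input and duplicates are not given in the sources used here. Library totals were read from the smallest step between values, and 100% of values were whole reads within 0.01. No column was left unused beyond these 14.

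USP53, ARLN and all lists were chosen with earlier results of these data known. The text names the pair, the listed genes around it, TJP1, USP54, ATP2A2, the 5 most similar profiles for each member, and, in each list, up to 4 genes with the smallest adjusted p. Symbols were assigned by span against RefSeq GRCh38.p14 (overlap divided by union of at least 0.8, or 0.5 with an end within 100 bp), which named 10746 genes (86.5%); the 14 mitochondrial genes were left out. Promoter sequences are from RefSeq. A listed neighbour and a junction gene that this rule takes in are not reported here.

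Genes averaging 1 RPM or more over the libraries of a fit were tested with limma 3.58.1 (R 4.3.3), two-sided, after adding 0.5 RPM and taking log2; p-values were Benjamini-Hochberg adjusted over all genes, with a threshold of 0.05. Hour, treatment or condition served as the block, so p-values measure only the spread between these libraries, and no group has a replicate. The 19 h comparison was added after the levels were seen. Alternatives were median centring, a pseudocount of 1, no filter, background subtraction (the density at percentile 5 of genes of at least 10 kb), edgeR 4.0.16 on the recovered counts, and leaving out hours or treatments. A count of 3 reads, the floor for counting error, was 0.0481 to 0.175 RPM. The fits were also run on simulated data with independent noise and no shift of the median gene between libraries. That run does not check the p-values of these data, where the median gene moved. Figures and other values were made in Python 3.11.15 with SciPy 1.17.1 and Matplotlib 3.10.9.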

Additional observations from a re-analysis of the deposited data

How the results depend on the processing

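No pairing of replicates was possible because each group held 1 library. Hours, treatments and conditions served as blocks instead. At 19 h in Ser2 both genes kept their call under all 7 alternatives, where many other genes were called as well. Of 11989 genes, 10739 were higher with background subtracted, 4312 with median centring and 4049 in edgeR. The mean ATRi difference of USP53 in Ser2, 0.28, was 0.17 with median centring, 0.35 with background subtracted and 0.17 in edgeR. The other ATRi means of the pair kept their sign. With background subtracted the median gene also rose, from 0.10 to 0.18 in Ser2 and from 0.18 to 0.31 in total RNAPII. Among all genes USP53 then went from percentile 94.1 to 87.3 in Ser2 and from 99.99 to 98.1 in total RNAPII. ARLN went from percentile 99.1 to 94.7 in Ser2 and from 99.8 to 95.1 in total RNAPII. In total RNAPII, where the SD over hours is about as large as the mean, the mean went without 22 h from 0.63 to 0.37 for USP53 and from 0.50 to 0.19 for ARLN, which was at 0.33 with median centring and 0.32 in edgeR. In Ser2 ARLN went from 0.39 to 0.26 without 16 h. For 22 h against 16 h in total RNAPII the sign turned without the DMSO libraries, to 0.14 for USP53 and 0.29 for ARLN, and in Ser2 the calls were lost with background subtracted (0.61 and 0.64; limma adjusted p 0.0790 and 0.0836). At 19 h in total RNAPII they were lost with background subtracted (1.36 and 1.32; 0.0926) and without 16 h (1.30 and 1.32; 0.0865 and 0.0720). For Ser2 against total they were lost with median centring (-0.094 and -0.19) and in edgeR (-0.092 and -0.18; 0.417 and 0.125). The cause was not tested.

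Counts of genes called moved with the scale. With median centring there were 1221 higher and 1262 lower for 22 h against 16 h in Ser2, 574 and 1156 at 19 h in total RNAPII, 4312 and 3586 at 19 h in Ser2, and 3609 and 2944 for Ser2 against total. In edgeR they were 1160 and 911, 503 and 1251, 4049 and 3770, and 3513 and 3063. With background subtracted they were 0 and 3 for 22 h against 16 h in Ser2, 5 and 12 in total RNAPII, and 127 and 56 at 19 h in total RNAPII. They were 10739 and 360 at 19 h in Ser2, and 274 were higher for Ser2 against total. Without 16 h the ATRi calls in Ser2 were 38 higher and 6 lower, and the 19 h calls in total RNAPII 26 and 30; without 19 h there were 846 higher for ATRi in Ser2 and 286 higher for Ser2 against total, and without 22 h 663 lower at 19 h in total RNAPII. No input or spike-in entered these values here, so a gain over all genes and a more efficient immunoprecipitation cannot be told apart.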
